A study of Mus musculus with 8 samples.

Results

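The genes described here encode the classical cell-guidance ligands and receptors: the Eph receptors and their ephrin ligands, the semaphorins with their plexin and neuropilin receptors, the netrins with the Unc5 receptors, and the Slit ligands with the Robo receptors. They were chosen by symbol alone, as protein-coding genes of the mouse annotation (GENCODE M21) whose names begin with the family name. The annotation holds 68 such genes, of which 67 are among the 48440 genes listed in the count files. A total of 61 passed the filter on low counts and were tested together with all 17049 genes that passed.

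The study edited Tbxt, the gene of the T-box transcription factor Brachyury, in MK6 mouse embryonic stem cells of the C57BL/6J strain, and sequenced RNA from 8 libraries of 4 genotypes, with 2 libraries each. Wild-type cells were the reference, and the edited lines were Tbxt Δexon6/Δexon6, which lacks exon 6 on both alleles, Tbxt Δexon6/+, which lacks it on 1 allele, and Tbxt insASAY/insASAY, labelled Tbxt Insert ASAY, which carries the human AluSx1 and AluY elements in the introns on either side of that exon, and was kept after Cre had removed the selection cassette. All 4 genotypes were differentiated without feeder cells in the same way, in medium without LIF and GSK3 or MEK inhibitors and then with the GSK3 inhibitor CHIR99021, and were harvested at day 1. Before that their culture histories differed, since per the study's methods the Alu elements were inserted in cells kept on mouse embryonic fibroblasts, while exon 6 was deleted in feeder-free cells. This history and the genotype cannot be told apart in insASAY/insASAY. The study's methods give the duplicates of each genotype as biological replicates, those of Δexon6/Δexon6 being separate clones. Whether the duplicates of the other genotypes were separate clones is not given in the sources used here, so each of those lines may be a single clone, and differences between lines and differences between clones cannot be told apart.

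Guidance ligands and receptors act at contacts between cells or through secreted cues, and steer growing axons, migrating cells and the borders between tissues. Ephrin-A ligands are tethered to the membrane by a lipid anchor and ephrin-B ligands span it, and both the ligand-bearing and the Eph-bearing cell can respond to contact. Semaphorins of class 3 are secreted and mostly act through a neuropilin paired with a plexin, while those of the other vertebrate classes are membrane-bound and bind plexins directly. Netrins and Slits are secreted cues read by Unc5 and Dcc family receptors and by Robo receptors, respectively. In the early embryo several of these genes are known outside the nervous system, for example Epha2 in the primitive streak and Epha4 and Efnb2 in the somite-forming mesoderm.

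The stretches of 250 bases before the start of 5 Eph and ephrin genes are shown because these genes gave some of the largest differences described below, and because they show how unlike in base composition the promoters of one family are. They were picked after the values were seen. All are RefSeq sequence of GRCm38.p6, printed 5′ to 3′ on the strand of the gene. The windows lie at chr4:141300971-141301220 on the plus strand for Epha2, chr1:77515089-77515338 on the minus strand for Epha4, chrX:99135811-99136060 on the plus strand for Efnb1, chr16:21204545-21204794 on the plus strand for Ephb3 and chr4:136956817-136957066 on the minus strand for Epha8. Capitals mark the letters CTTTGA, the core of the motif bound by TCF/LEF factors, which act in the Wnt pathway that CHIR99021 activates.
Epha2: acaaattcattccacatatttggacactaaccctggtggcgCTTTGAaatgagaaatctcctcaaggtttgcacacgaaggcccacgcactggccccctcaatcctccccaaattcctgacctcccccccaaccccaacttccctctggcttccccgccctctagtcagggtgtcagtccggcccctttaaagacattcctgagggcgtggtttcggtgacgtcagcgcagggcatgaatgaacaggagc
Epha4: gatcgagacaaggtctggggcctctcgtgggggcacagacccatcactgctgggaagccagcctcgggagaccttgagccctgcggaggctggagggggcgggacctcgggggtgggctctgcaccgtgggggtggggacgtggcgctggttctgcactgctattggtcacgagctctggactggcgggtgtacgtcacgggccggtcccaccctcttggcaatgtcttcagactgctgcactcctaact
Efnb1: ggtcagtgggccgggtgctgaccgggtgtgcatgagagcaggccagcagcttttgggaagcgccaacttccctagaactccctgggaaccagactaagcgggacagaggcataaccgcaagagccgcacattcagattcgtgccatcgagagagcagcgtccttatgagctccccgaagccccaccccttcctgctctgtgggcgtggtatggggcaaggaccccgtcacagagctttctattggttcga
Ephb3: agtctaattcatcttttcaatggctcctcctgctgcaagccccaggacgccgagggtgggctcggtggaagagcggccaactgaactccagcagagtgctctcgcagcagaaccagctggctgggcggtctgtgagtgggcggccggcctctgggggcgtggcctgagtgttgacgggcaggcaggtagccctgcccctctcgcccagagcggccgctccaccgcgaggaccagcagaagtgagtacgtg
Epha8: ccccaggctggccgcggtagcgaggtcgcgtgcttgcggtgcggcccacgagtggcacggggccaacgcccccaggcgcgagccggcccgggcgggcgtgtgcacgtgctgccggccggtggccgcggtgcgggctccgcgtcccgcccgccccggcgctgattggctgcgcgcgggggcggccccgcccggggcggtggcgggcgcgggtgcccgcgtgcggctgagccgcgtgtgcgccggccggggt

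The GC content of these stretches ran from 55.6% in Epha2 through 60.0% in Efnb1, 65.6% in Ephb3 and 66.0% in Epha4 to 84.0% in Epha8, and the number of CG pairs from 9 in Epha2 to 46 in Epha8. Of the 68 genes, 59 had at least 1 promoter window of 300 bases, and together they had 75 windows among 32851. The median GC content was 64.3% in the windows of the guidance genes and 52.7% in all windows, with a median of 19 against 7 CG pairs. On either strand, CTTTGA was present in 5 of the 75 windows, or 6.67%, and in 16.0% of all windows. Those 5 belonged to Epha2, Nrp2, Robo4, Sema3e and Sema6d. The half-site of T-box factors, AGGTGT, was present in 8 windows of 7 genes, or 10.7%, and in 13.7% of all windows. The longer forms CTTTGATC and AGGTGTGA, which contain the shorter letters, were each found in 1 window of a guidance gene, that of Nrp2 and one of Sema4a, against 0.938% and 1.28% of all windows. A match of letters is a description of the window and not a binding site.

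Each library held between 24618587 and 28445952 reads on genes, and 4.11% to 4.78% of the reads fell on the strand opposite to the gene. Levels are given as CPM, reads scaled to the size of the library with the trimmed mean of M values, and levels of different genes are compared only as RPKM, which is CPM divided by the exon length in kilobases. The cells expressed the stem cell factors Pou5f1, at 156 to 295 CPM, and Sox2, at 47.3 to 117 CPM, in every library. The edited gene itself was low, at 47 and 42 reads in wild-type, 26 and 22 in Δexon6/Δexon6, 30 and 29 in insASAY/insASAY and 39 and 54 in Δexon6/+. A total over the gene does not show which exon is missing, so these reads do not check the genotype labels. Of 8 primitive streak and mesoderm markers, Mesp1, Gsc and Msgn1 had at most 8 reads in any library. The lists of markers of other cells held both near-silent and well detected genes. Of the neuron markers, Dcx had at most 10 reads in any library, while Stmn2 and Tubb3 reached 1424 and 942. Of the fibroblast markers, Postn had at most 2, while Col1a1, Col1a2 and Thy1 reached 382, 216 and 120. Of the endothelial markers, Emcn had at most 1, while Pecam1, which stem cells also express, reached 1096. Of the primitive endoderm markers, Foxa2 had at most 23 and Sox17 at most 27, while Gata4 and Dab2 reached 264 and 193.

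By level per length, the receptors dominated. Plxna1, a plexin that pairs with neuropilins as receptor of class 3 semaphorins, was the most abundant at a mean of 36.2 RPKM over the 8 libraries. It was followed by Plxnb2, a receptor of class 4 semaphorins, at 25.9 RPKM, Epha2 at 17.9 RPKM, Ephb4 at 14.8 RPKM and Epha1 at 11.0 RPKM. The most abundant ligands were Efnb1 at 8.37 RPKM and Efna4 at 8.08 RPKM. Within families the level was uneven. Epha2 and Epha1 held 52.5% and 32.0% of the summed RPKM of the EphA receptors, Ephb4 held 63.2% of the EphB receptors, Unc5b held 88.6% of the Unc5 receptors and Robo1 held 88.9% of the Robo receptors. Among ligands, Ntn1 held 71.8% of the netrins, Sema5b 88.5% of class 5, Slit3 59.1% of the Slits and Efnb1 57.6% of the ephrin-B ligands. The neuropilins were low, at 0.288 RPKM for Nrp2 and 0.106 RPKM for Nrp1, although the class 3 semaphorins Sema3b and Sema3e stood at 6.13 and 4.67 RPKM.

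**Figure D1:**
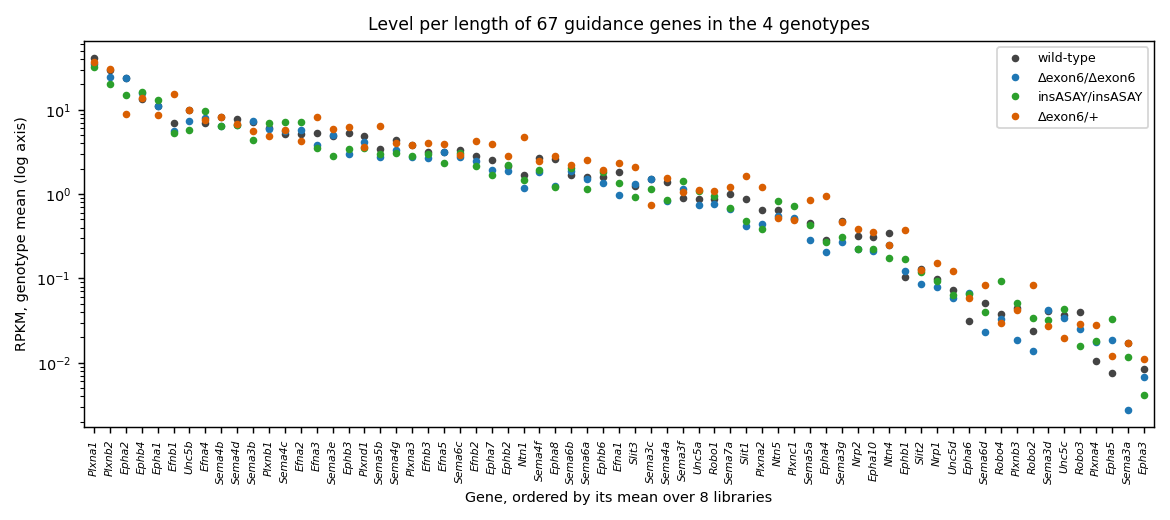
RPKM (log axis) of the 67 listed guidance genes, ordered by their mean over 8 libraries, with 1 point for the mean of each genotype and no point where that mean is 0. Plxna1, Plxnb2 and Epha2 stand highest, and the low genes at the right rest on few reads and spread more between genotypes.

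The 6 genes that did not pass the filter were Epha3, Epha6, Plxnb3, Robo3, Sema3a and Sema3d, whose largest counts in any library were 4, 13, 10, 8, 8 and 13 reads. They were not tested, and differences in them were not detectable at this depth. Ntn3 was not analysed here because its identifier in the annotation is not among the files' identifiers.

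Against wild-type cells, the 3 edited lines gave different pictures of the guidance genes. In Δexon6/Δexon6, 12 of the 61 tested genes were called lower and 0 were called higher, where a call is an adjusted p under 0.05 from edgeR with a log2 fold change past 0.5 in size. Over all tested genes, 6.12% were called higher and 6.59% lower in that line. At an unadjusted p under 0.05, with no limit on the fold, 2 genes were higher, Ephb4 and Sema3f, and 29 lower, and DESeq2 called 0 higher and 9 lower. The median log2 fold change of the guidance genes was -0.26 against -0.01 over all genes, and -0.19 after correction of the counts for GC content and exon length. In insASAY/insASAY, 3 were called higher and 16 lower, with 11.5% of all genes called higher and 9.85% lower, and the medians were -0.34 and -0.01. After the same correction, the split was 5 higher and 12 lower and the median of the guidance genes -0.21. In Δexon6/+ the balance was the other way, with 15 called higher and 2 lower beside 6.60% and 6.89% of all genes, and the medians were 0.25 and -0.0006. These comparisons share the wild-type libraries. In bulk RNA, fewer cells of a type and less RNA per cell cannot be told apart.

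**Figure D2:**
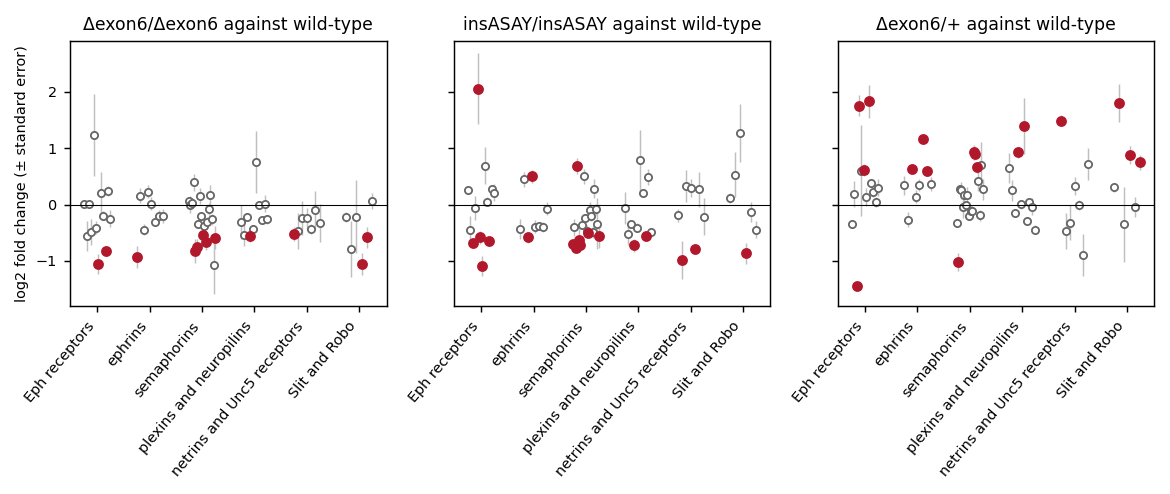
Log2 fold change against wild-type, with its standard error, of the 61 tested guidance genes in each edited line, grouped by family; filled points are called and open points are not. The called points lie below 0 in Δexon6/Δexon6 (12 of 12) and mostly above 0 in Δexon6/+ (15 of 17).

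In all, 34 of the 61 genes were called in at least 1 line and 27 in none. Of all tested genes, 12.7% were called in Δexon6/Δexon6, 13.5% in Δexon6/+ and 21.3% in insASAY/insASAY. Their share called in at least 1 line, and their patterns over the lines, were not counted. The counts in this paragraph therefore describe the guidance genes only and are not set against all genes. The most frequent pattern was a higher call in Δexon6/+ alone, for the 9 genes Efnb1, Efnb2, Epha4, Ephb1, Plxna4, Robo2, Sema5b, Sema6a and Slit3, while Sema3c was called lower in that line alone. Calls in insASAY/insASAY alone were lower for Ntn4, Plxnb2, Sema3b, Sema3e, Sema4g and Unc5b and higher for Efna4, Epha5 and Sema3f. Epha8, Ephb3, Sema3g, Sema4a and Sema7a were lower in both homozygous lines and not called in Δexon6/+. Plxna2 and Slit1 were lower in both homozygous lines and higher in Δexon6/+, while Ntn1 and Sema5a were lower in Δexon6/Δexon6 and higher in Δexon6/+. Efna1, Sema4f and Slit2 were lower in Δexon6/Δexon6 alone, Efna3 and Epha7 were higher in Δexon6/+ and lower in insASAY/insASAY, and Epha2 was lower in both of these. A call in one line and not in another is not in itself a difference between them, and the direct comparisons of the lines are given after the families.

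**Figure D3:**
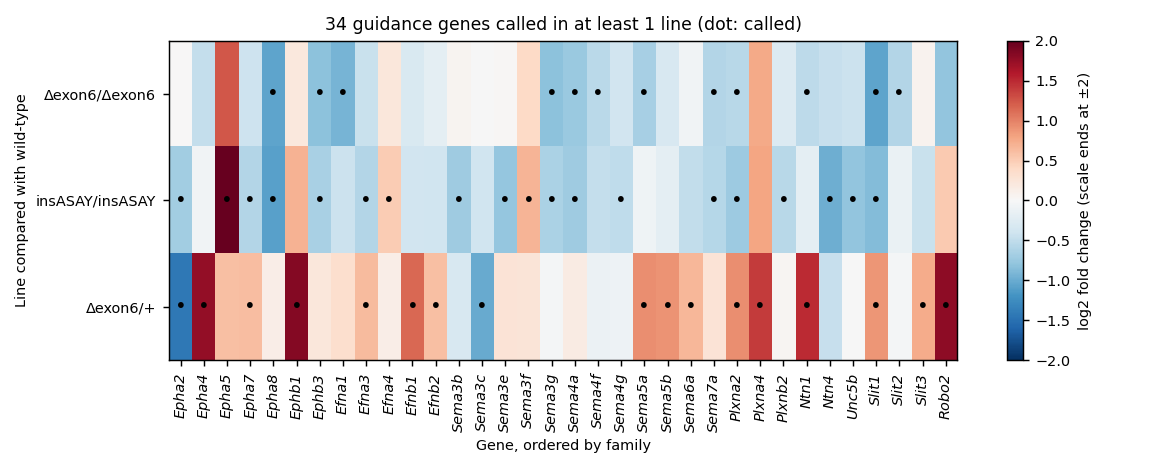
Log2 fold change against wild-type (colour, red higher and blue lower, scale ending at 2 in size) of the 34 guidance genes called in at least 1 line, with a dot where the gene was called. The Δexon6/+ row is mostly red at its dots, with Epha2 and Sema3c as its 2 blue dots, and the Δexon6/Δexon6 row has blue dots only.

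Among the 12 tested Eph receptors, 2 were lower in Δexon6/Δexon6, 1 was higher and 4 were lower in insASAY/insASAY, and 3 were higher and 1 was lower in Δexon6/+. The gene with the strongest statistics of all 61 in Δexon6/+ was Epha2 (ENSMUSG00000006445, GRCm38 chromosome 4, 141301240 to 141329384, plus strand), a receptor that binds ephrin-A ligands. Its level was 109 and 114 CPM in the wild-type libraries, 120 and 106 in Δexon6/Δexon6, 68.2 and 70.4 in insASAY/insASAY and 39.1 and 43.5 in Δexon6/+. The Δexon6/+ libraries lay lowest, the insASAY/insASAY libraries between, and neither overlapped wild-type. Its change in Δexon6/+ was -1.44 ± 0.07 on the log2 scale (± standard error here and throughout, edgeR adjusted p = 3.7e-08), a level 0.369 times that of wild-type, and -0.69 ± 0.07 (adjusted p = 8.1e-06) in insASAY/insASAY. In Δexon6/Δexon6 it was 0.01 ± 0.07 (adjusted p = 0.91), so the sharpest fall was in the heterozygous line.

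Epha4 (ENSMUSG00000026235, chromosome 1, 77367185 to 77515088, minus strand), which unlike most EphA receptors also binds ephrin-B ligands, moved in the opposite direction. It measured 2.27 and 2.31 CPM in wild-type, 1.78 and 1.504 in Δexon6/Δexon6, 2.66 and 1.72 in insASAY/insASAY and 7.84 and 7.64 in Δexon6/+. The Δexon6/+ libraries stood above all others, at 3.38 times the wild-type level (log2 fold change 1.75 ± 0.19, adjusted p = 1.5e-05). Both Δexon6/Δexon6 libraries lay below wild-type, but Epha4 was not called in that line. Epha7, another ephrin-A receptor, measured 25.8 and 24.4 CPM in wild-type, 22.0 and 15.9 in Δexon6/Δexon6, 17.1 and 16.5 in insASAY/insASAY and 37.7 and 39.2 in Δexon6/+. It rose in Δexon6/+ (0.61 ± 0.11, adjusted p = 0.00090) and fell in insASAY/insASAY (-0.58 ± 0.12, adjusted p = 0.0013), and these groups did not overlap wild-type.

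Ephb3 and Epha8 fell in both homozygous lines. Ephb3 (chromosome 16, 21204755 to 21223305, plus strand), a receptor of ephrin-B ligands and a known Wnt target in the intestine, measured 35.0 and 35.9 CPM in wild-type, 22.1 and 17.9 in Δexon6/Δexon6, 22.4 and 22.6 in insASAY/insASAY and 40.6 and 42.0 in Δexon6/+. The homozygous libraries all lay below both wild-type libraries, with log2 fold changes of -0.83 ± 0.09 (adjusted p = 6.5e-05) and -0.66 ± 0.09 (adjusted p = 7.2e-05). Corrected for GC content and exon length, the second was -0.49, inside the fold limit. Epha8 measured 11.7 and 12.8 CPM in wild-type, 7.45 and 4.40 in Δexon6/Δexon6, 5.98 and 5.56 in insASAY/insASAY and 13.4 and 13.4 in Δexon6/+. Although its 2 Δexon6/Δexon6 clones differed from each other, both lay under wild-type, and the log2 fold changes were -1.06 ± 0.18 (adjusted p = 0.00073) and -1.09 ± 0.17 (adjusted p = 0.00026).

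The 2 Eph receptors called at low levels rest on few reads. Ephb1 had 22 and 18 reads in wild-type, 27 and 17 in Δexon6/Δexon6, 35 and 30 in insASAY/insASAY and 81 and 53 in Δexon6/+, where it was higher by 1.83 ± 0.29 on the log2 scale (adjusted p = 0.00039). Epha5 had 4 and 3 reads in wild-type, 9 and 7 in Δexon6/Δexon6, 16 and 14 in insASAY/insASAY and 1 and 9 in Δexon6/+. Its call in insASAY/insASAY (2.06 ± 0.64, adjusted p = 0.018) was lost when any 1 of 4 libraries, the wild-type or the insASAY/insASAY ones, was left out, with adjusted p of 0.050 to 0.10. The abundant receptors Ephb4, Epha1 and Ephb2 were called in no line. Ephb4, the receptor of ephrin-B2, ran from 61.4 to 81.8 CPM over the 8 libraries, Epha1 from 32.1 to 51.5 CPM and Ephb2 from 22.8 to 36.3 CPM.

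All 8 ephrin genes passed the filter, and their summed level was 107 and 102 CPM in wild-type, 93.5 and 95.1 in Δexon6/Δexon6, 94.3 and 93.9 in insASAY/insASAY and 162 and 152 in Δexon6/+. The rise in the sum of Δexon6/+ came largely from the ephrin-B ligands. Efnb1 (ENSMUSG00000031217, chromosome X, 99136130 to 99148991, plus strand) measured 25.3 and 22.8 CPM in wild-type, 19.4 and 19.4 in Δexon6/Δexon6, 18.4 and 18.5 in insASAY/insASAY and 53.4 and 53.8 in Δexon6/+. The log2 fold change in Δexon6/+ was 1.16 ± 0.07 (adjusted p = 2.0e-07), or 2.23 times wild-type. In the homozygous lines the values were -0.31 ± 0.08 and -0.38 ± 0.08, which passed the p threshold (adjusted p = 0.0073 and 0.0012) but not the fold limit. Efnb2 measured 20.6 and 18.5 CPM in wild-type, 17.5 and 16.8 in Δexon6/Δexon6, 14.4 and 15.2 in insASAY/insASAY and 31.4 and 27.8 in Δexon6/+, where it rose by 0.60 ± 0.09 on the log2 scale (adjusted p = 0.00022). Thus Efnb1, Efnb2 and the gene of their receptor Epha4 were each highest in the Δexon6/+ libraries, while the ephrin-A receptor Epha2 was lowest there.

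The ephrin-A genes Efna1, Efna3 and Efna4 lie in a row within 66296 bases on the minus strand of chromosome 3, from 89271733 to 89338028, and did not move together. Efna1, a ligand of Epha2, measured 3.36 and 3.35 CPM in wild-type, 1.98 and 1.54 in Δexon6/Δexon6, 2.696 and 2.27 in insASAY/insASAY and 4.28 and 4.21 in Δexon6/+. It fell in Δexon6/Δexon6 (-0.93 ± 0.19, adjusted p = 0.0028). Efna3 measured 12.6 and 13.1 CPM in wild-type, 9.07 and 9.79 in Δexon6/Δexon6, 8.38 and 8.82 in insASAY/insASAY and 20.6 and 19.2 in Δexon6/+. It fell in insASAY/insASAY (-0.58 ± 0.10, adjusted p = 0.00046) and rose in Δexon6/+ (0.63 ± 0.09, adjusted p = 0.00020). Efna4 measured 10.5 and 11.6 CPM in wild-type, 12.0 and 13.7 in Δexon6/Δexon6, 15.5 and 15.7 in insASAY/insASAY and 13.2 and 11.1 in Δexon6/+. Its call in insASAY/insASAY (0.50 ± 0.11, adjusted p = 0.0025) sat at the fold limit and was lost on leaving out any 1 of 6 libraries, with log2 values of 0.43 to 0.50. In insASAY/insASAY, therefore, 2 neighbouring genes differed in direction from wild-type.

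**Figure D4:**
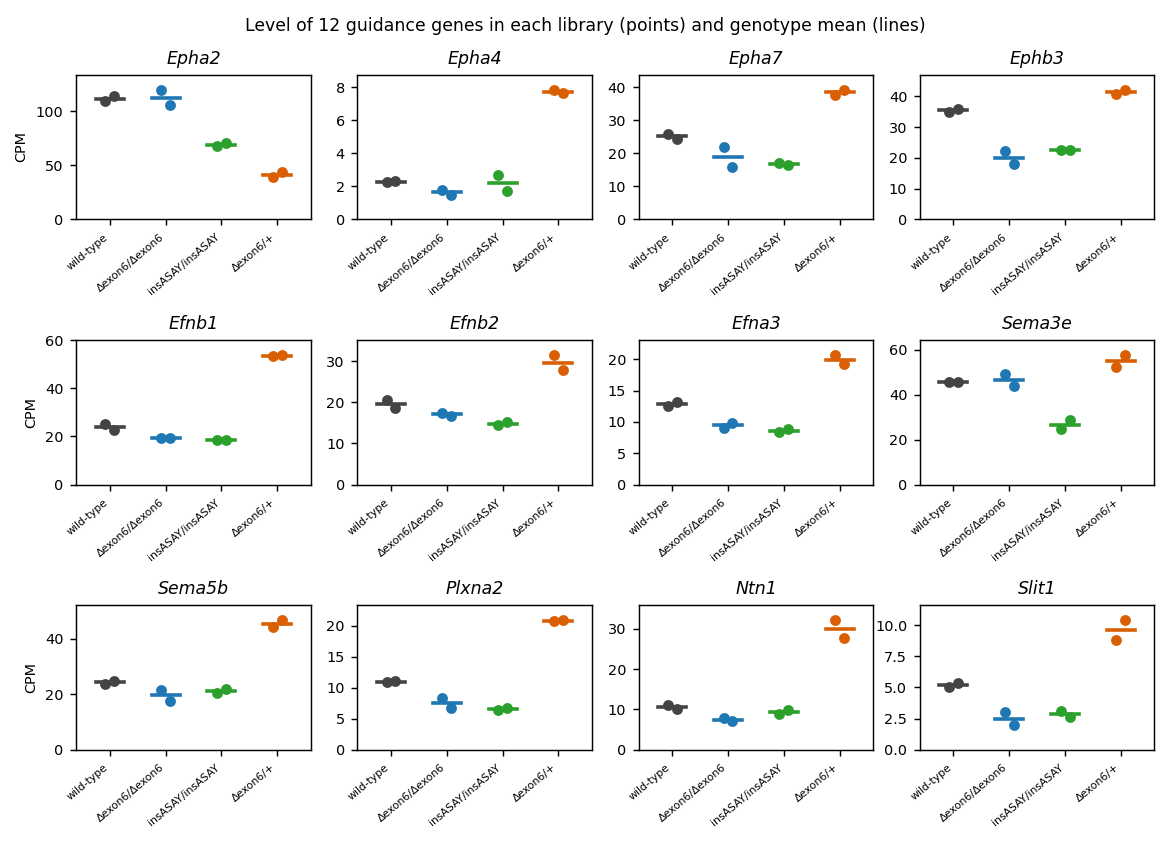
CPM of 12 guidance genes in each library (points, 2 per genotype) with the genotype mean (line); every axis starts at 0 and has its own scale. The Δexon6/+ libraries are lowest for Epha2 and highest for the other 11. The Δexon6/Δexon6 and insASAY/insASAY libraries all lie below wild-type except for Epha2, Epha4 and Sema3e. Of the genes shown, Ephb3, Plxna2 and Slit1 were called lower in both of these lines.

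Many genes of chromosome 3 differed in Δexon6/+, and this bears on the 6 guidance genes there. In Δexon6/+ the median log2 fold change of the 842 tested genes of the chromosome other than guidance genes was 0.33, against -0.0035 in Δexon6/Δexon6 and -0.01 in insASAY/insASAY. Within 5 Mb of Efna3 the median of 141 genes was 0.40, with 81.6% of them higher, and the medians around Sema4a, Efna1, Efna4 and Sema6c were 0.43, 0.40, 0.40 and 0.39. Around Unc5c, at 141465216 to 141834924, the median of 48 genes was -0.53, with 10.4% higher. In the homozygous lines the corresponding medians lay between -0.06 and 0.08. The log2 value of Efna3 in Δexon6/+ (0.63) thus stood above the median of its neighbourhood, those of Efna1 (0.34), Efna4 (0.14), Sema4a (0.16) and Sema6c (-0.19) did not exceed theirs, and Unc5c (-0.89 ± 0.37, adjusted p = 0.086, 17 and 21 reads in wild-type and 10 and 9 in Δexon6/+) had the sign of its neighbours. The part of the chromosome in these values was not tested. Without the 6 genes of chromosome 3, 14 guidance genes were higher and 2 lower of 55 in Δexon6/+.

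**Figure D5:**
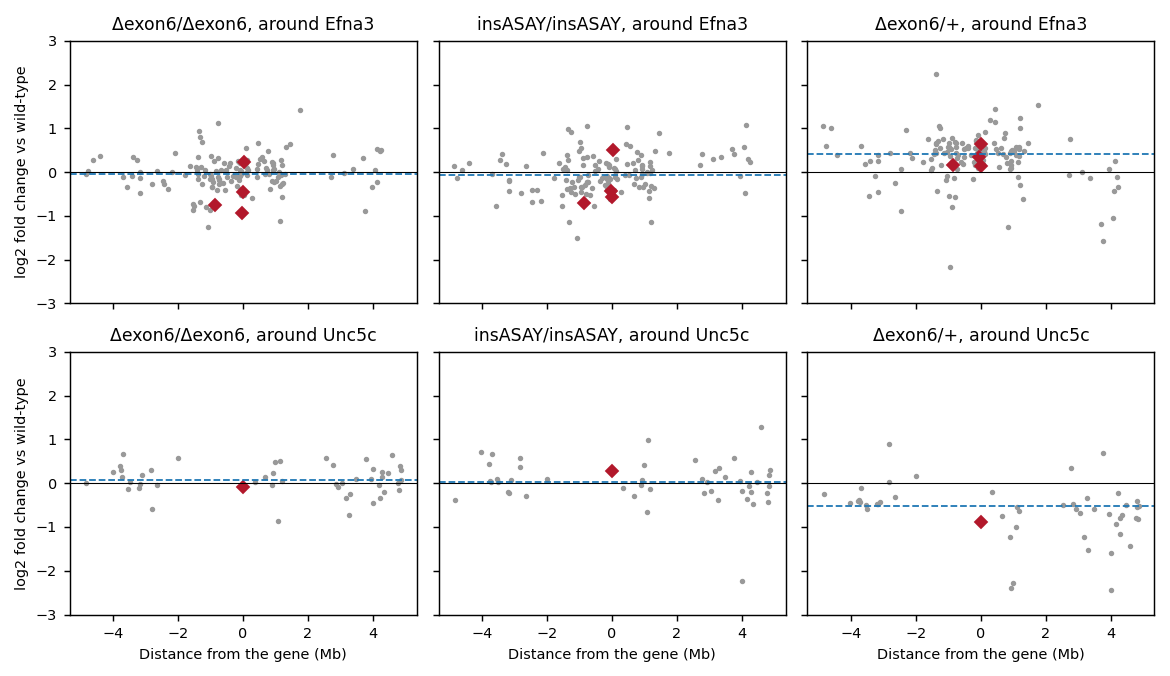
Log2 fold change against wild-type of the tested genes within 5 Mb of Efna3 (top) and Unc5c (bottom), by distance in Mb, in the 3 edited lines; diamonds are guidance genes, dots other genes, and the dashed line is the median of the dots. The line lies near 0 in the homozygous lines, at 0.40 around Efna3 and at -0.53 around Unc5c in Δexon6/+.

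Among the 18 tested semaphorins, 5 were lower and 0 higher in Δexon6/Δexon6 by edgeR (10 and 1 at an unadjusted p under 0.05), 6 lower and 1 higher in insASAY/insASAY, and 3 higher and 1 lower in Δexon6/+. The secreted class 3 genes changed mostly in insASAY/insASAY, where 3 of 5 fell and 1 rose. Sema3e, which signals through Plxnd1 without a neuropilin, measured 45.6 and 45.5 CPM in wild-type, 49.1 and 44.0 in Δexon6/Δexon6, 24.7 and 28.5 in insASAY/insASAY and 52.2 and 57.5 in Δexon6/+. Only the insASAY/insASAY libraries lay apart below (-0.78 ± 0.08, adjusted p = 1.6e-05). Its receptor gene Plxnd1 ran from 23.9 to 37.1 CPM and was called in no line, with log2 values of -0.49 ± 0.08 in insASAY/insASAY and -0.45 ± 0.08 in Δexon6/+ just inside the fold limit. Sema3b measured 34.1 and 33.7 CPM in wild-type, 34.6 and 36.0 in Δexon6/Δexon6, 21.6 and 19.9 in insASAY/insASAY and 26.2 and 28.04 in Δexon6/+, and fell in insASAY/insASAY (-0.71 ± 0.07, adjusted p = 1.3e-05).

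Sema3f went the other way in the same line. It measured 4.44 and 4.80 CPM in wild-type, 5.22 and 6.86 in Δexon6/Δexon6, 7.62 and 7.25 in insASAY/insASAY and 5.38 and 5.64 in Δexon6/+, and the log2 fold change in insASAY/insASAY was 0.69 ± 0.15 (adjusted p = 0.0021). Sema3c, a secreted cue known from neural crest migration, measured 10.8 and 10.7 CPM in wild-type, 11.6 and 9.90 in Δexon6/Δexon6, 7.54 and 8.75 in insASAY/insASAY and 4.35 and 6.33 in Δexon6/+. It fell in Δexon6/+ (-1.01 ± 0.16, adjusted p = 0.00037) and with Epha2 made up the 2 genes called lower there. Sema3g had 62 and 57 reads in wild-type, 32 and 32 in Δexon6/Δexon6, 39 and 38 in insASAY/insASAY and 55 and 53 in Δexon6/+. Its calls in Δexon6/Δexon6 (-0.82 ± 0.21, adjusted p = 0.0095) and insASAY/insASAY (-0.63 ± 0.20, adjusted p = 0.022) were lost on leaving out 2 and 4 of the libraries in turn, with adjusted p of 0.051 to 0.059 and 0.062 to 0.10.

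The membrane-bound class 4 genes were lower where they were called. Sema4a, on chromosome 3 at 88435959 to 88461182, measured 7.90 and 6.96 CPM in wild-type, 4.53 and 4.33 in Δexon6/Δexon6, 4.56 and 4.54 in insASAY/insASAY and 9.05 and 7.56 in Δexon6/+. Both homozygous lines lay below wild-type, by -0.75 ± 0.14 (adjusted p = 0.0017) and -0.71 ± 0.14 (adjusted p = 0.0012) on the log2 scale. Sema4f measured 14.0 and 14.3 CPM in wild-type, 10.2 and 9.35 in Δexon6/Δexon6, 11.0 and 9.48 in insASAY/insASAY and 12.5 and 13.8 in Δexon6/+, with a call in Δexon6/Δexon6 (-0.54 ± 0.11, adjusted p = 0.0023) that dropped inside the fold limit, at -0.48, without Δexon6/Δexon6 replicate 2 and likewise, at -0.48, after correction for GC content and exon length. Sema4g measured 36.7 and 39.5 CPM in wild-type, 30.8 and 27.7 in Δexon6/Δexon6, 25.9 and 27.9 in insASAY/insASAY and 34.7 and 36.1 in Δexon6/+. Its call in insASAY/insASAY (-0.51 ± 0.08, adjusted p = 0.00018) moved to -0.45 without wild-type replicate 2 or insASAY/insASAY replicate 1 and to -0.36 after correction for GC content and exon length. The more abundant Sema4b (35.2 to 47.1 CPM), Sema4d (48.6 to 61.8 CPM), whose receptor is Plxnb1, and Sema4c (20.7 to 34.0 CPM) were called in no line.

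Class 5 and class 6 genes accounted for the rises of semaphorins in Δexon6/+. Sema5b, a transmembrane protein with thrombospondin repeats, measured 23.8 and 24.9 CPM in wild-type, 21.5 and 17.7 in Δexon6/Δexon6, 20.4 and 21.9 in insASAY/insASAY and 44.3 and 46.6 in Δexon6/+, an increase of 0.90 ± 0.09 (adjusted p = 7.2e-06). Sema5a, of the same class, measured 9.35 and 7.63 CPM in wild-type, 5.87 and 4.88 in Δexon6/Δexon6, 7.43 and 8.49 in insASAY/insASAY and 17.2 and 15.0 in Δexon6/+. It rose in Δexon6/+ (0.92 ± 0.13, adjusted p = 0.00017) and fell in Δexon6/Δexon6 (-0.66 ± 0.15, adjusted p = 0.0045), a call lost without wild-type replicate 1 (-0.51, adjusted p = 0.063). In both class 5 genes the Δexon6/+ libraries lay above all others. Sema6a, a ligand of Plxna2 and Plxna4, measured 12.7 and 15.3 CPM in wild-type, 13.8 and 12.8 in Δexon6/Δexon6, 9.55 and 10.4 in insASAY/insASAY and 22.6 and 21.7 in Δexon6/+, where it rose by 0.66 ± 0.10 (adjusted p = 0.00029). Sema6c ran from 15.8 to 21.3 CPM and was called in no line. Sema7a, a lipid-anchored ligand of Plxnc1, measured 2.85 and 3.76 CPM in wild-type, 2.47 and 1.94 in Δexon6/Δexon6, 2.30 and 2.16 in insASAY/insASAY and 3.82 and 4.13 in Δexon6/+. Its calls in Δexon6/Δexon6 (-0.59 ± 0.20, adjusted p = 0.038) and insASAY/insASAY (-0.57 ± 0.20, adjusted p = 0.032) were lost on leaving out 6 and 3 of the libraries in turn, with adjusted p of up to 0.29 and 0.27, and both were also lost after correction for GC content and exon length (-0.52, adjusted p = 0.060, and -0.49, adjusted p = 0.053).

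Of the 8 tested plexins and 2 neuropilins, 3 plexins were called. Plxna2 measured 10.9 and 11.1 CPM in wild-type, 8.30 and 6.71 in Δexon6/Δexon6, 6.49 and 6.81 in insASAY/insASAY and 20.7 and 20.9 in Δexon6/+. It rose in Δexon6/+ (0.92 ± 0.10, adjusted p = 2.5e-05), fell in insASAY/insASAY (-0.72 ± 0.12, adjusted p = 0.00028) and fell in Δexon6/Δexon6 (-0.55 ± 0.12, adjusted p = 0.0031), the last at -0.40 without Δexon6/Δexon6 replicate 2. Plxna2 and its ligand gene Sema6a were therefore both highest in the Δexon6/+ libraries. Plxnb2 measured 217 and 236 CPM in wild-type, 191 and 182 in Δexon6/Δexon6, 152 and 157 in insASAY/insASAY and 228 and 239 in Δexon6/+. It fell in insASAY/insASAY (-0.55 ± 0.05, adjusted p = 7.7e-06), and the value was inside the fold limit without wild-type replicate 2 (-0.49) and after correction for GC content and exon length (-0.42). Plxna4 had 3 to 10 reads in any library, and its call in Δexon6/+ (1.40 ± 0.50, adjusted p = 0.049) was lost under 12 of the alternatives, including the removal of any 1 of the 8 libraries (adjusted p of 0.063 to 0.26) and the correction for GC content and exon length (adjusted p = 0.058). The abundant Plxna1 (284 to 390 CPM), Plxnb1 (44.9 to 67.3 CPM) and Plxna3 (21.1 to 30.7 CPM) were called in no line, nor were Nrp1 and Nrp2.

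Ntn1 (ENSMUSG00000020902, chromosome 11, 68209364 to 68400823, minus strand), which encodes netrin-1, changed most among the netrins and Unc5 receptors. It measured 11.2 and 10.2 CPM in wild-type, 7.81 and 7.04 in Δexon6/Δexon6, 8.82 and 9.84 in insASAY/insASAY and 32.1 and 27.8 in Δexon6/+. The log2 fold change in Δexon6/+ was 1.49 ± 0.10 (adjusted p = 5.0e-07), or 2.81 times wild-type. In Δexon6/Δexon6 it was -0.52 ± 0.12 (adjusted p = 0.0051), a call lost without wild-type replicate 1 (-0.45, adjusted p = 0.055) or without Δexon6/Δexon6 replicate 2 (-0.45, adjusted p = 0.020, inside the fold limit), and inside that limit, at -0.405, after correction for GC content and exon length. Unc5b, the Unc5 receptor gene with the highest level per length, measured 59.1 and 66.9 CPM in wild-type, 50.4 and 42.8 in Δexon6/Δexon6, 34.8 and 37.8 in insASAY/insASAY and 62.9 and 62.5 in Δexon6/+. It fell in insASAY/insASAY (-0.79 ± 0.08, adjusted p = 1.4e-05) and stood at -0.01 ± 0.08 (adjusted p = 0.96) in Δexon6/+, the line in which its ligand rose. Ntn4 had 15 to 45 reads in any library, and its call in insASAY/insASAY (-0.98 ± 0.34, adjusted p = 0.030) was lost on leaving out any 1 of 3 libraries, with adjusted p of 0.051 to 0.32. Unc5a, Unc5d and Ntn5 were not called against wild-type.

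All 3 Slit genes were called in some line. Slit1 (chromosome 19, 41600257 to 41743665, minus strand), a secreted repellent cue, measured 5.05 and 5.32 CPM in wild-type, 2.996 and 2.02 in Δexon6/Δexon6, 3.10 and 2.60 in insASAY/insASAY and 8.78 and 10.4 in Δexon6/+. It fell in both homozygous lines (-1.06 ± 0.19, adjusted p = 0.0014, and -0.86 ± 0.19, adjusted p = 0.0021) and rose in Δexon6/+ (0.88 ± 0.16, adjusted p = 0.0011). No library of an edited line overlapped wild-type. Slit3 measured 6.97 and 8.22 CPM in wild-type, 7.77 and 8.11 in Δexon6/Δexon6, 4.81 and 6.33 in insASAY/insASAY and 13.1 and 12.4 in Δexon6/+, a rise of 0.75 ± 0.13 (adjusted p = 0.00092). Slit2 measured 3.61 and 3.01 CPM in wild-type, 2.06 and 2.35 in Δexon6/Δexon6, 3.24 and 2.82 in insASAY/insASAY and 3.03 and 3.43 in Δexon6/+. Its call in Δexon6/Δexon6 (-0.58 ± 0.19, adjusted p = 0.029) was lost without wild-type replicate 1 or without Δexon6/Δexon6 replicate 1, with adjusted p of 0.20 and 0.074. Of their receptors, Robo2 (chromosome 16, 73891839 to 74411825, minus strand) had 9 and 13 reads in wild-type, 6 and 6 in Δexon6/Δexon6, 18 and 14 in insASAY/insASAY and 44 and 28 in Δexon6/+. It rose in Δexon6/+ (1.80 ± 0.34, adjusted p = 0.0014), although at a level far under that of Robo1, which was called in no line.

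The lines were also compared with one another. Between Δexon6/+ and Δexon6/Δexon6, 31 of the 61 genes were higher in Δexon6/+ and 2 were lower, beside 11.2% and 11.0% of all genes, and the median log2 difference was 0.54. The 2 lower were again Epha2 (-1.45 ± 0.07, adjusted p = 2.5e-08) and Sema3c (-1.01 ± 0.16, adjusted p = 0.00023). Differences above 1.5 on the log2 scale were found for Robo2 (2.59 ± 0.39), Epha4 (2.24 ± 0.20), Ntn1 (2.01 ± 0.11), Slit1 (1.94 ± 0.18), Sema6d (1.78 ± 0.47, on 3 to 26 reads), Ephb1 (1.62 ± 0.29) and Sema5a (1.59 ± 0.14), with adjusted p of 0.0078 for Sema6d and smaller for the others. All 3 ephrin-B genes were higher in Δexon6/+, including Efnb3 (0.57 ± 0.12, adjusted p = 0.0018), which was not called against wild-type, and both neuropilins were higher as well (Nrp1 0.96 ± 0.28, adjusted p = 0.013, and Nrp2 0.78 ± 0.20, adjusted p = 0.0063).

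Between insASAY/insASAY and Δexon6/+, 28 genes were lower in insASAY/insASAY and 8 were higher, beside 13.0% and 14.6% of all genes, and the median was -0.52. Epha4 (-1.82 ± 0.19), Slit1 (-1.75 ± 0.18), Ntn1 (-1.68 ± 0.11), Plxna2 (-1.65 ± 0.11) and Efnb1 (-1.54 ± 0.07) differed most among those lower, with adjusted p between 1.6e-08 and 5.3e-06. The 8 higher were Epha1, Epha2, Efna2, Plxnb1, Plxnc1, Sema3c, Unc5c and Robo4, of which Epha2 differed by 0.75 ± 0.07 (adjusted p = 2.9e-06). Robo4 rests on 13 and 14 reads in insASAY/insASAY and 5 and 3 in Δexon6/+. Unc5c rests on 26 and 20 reads in insASAY/insASAY and 10 and 9 in Δexon6/+. Its neighbours on chromosome 3 had a median of -0.53 in Δexon6/+ against wild-type, and their part in this call was not tested.

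The 2 homozygous lines gave the fewest calls against each other. Between insASAY/insASAY and Δexon6/Δexon6, 2 guidance genes were higher in insASAY/insASAY and 4 lower, beside 2.79% and 2.38% of all genes, and the median was 0.12. The 4 lower were Sema3e (-0.81 ± 0.08, adjusted p = 5.1e-05), Sema3b (-0.76 ± 0.07, adjusted p = 2.8e-05), Epha2 (-0.70 ± 0.07, adjusted p = 2.6e-05) and Slit3 (-0.51 ± 0.15, adjusted p = 0.033), and the 2 higher were Sema5a (0.57 ± 0.15, adjusted p = 0.022) and Unc5a (0.53 ± 0.17, adjusted p = 0.050). The count was 3 without insASAY/insASAY replicate 1. With DESeq2 size factors the split was 1 higher and 4 lower, and after correction for GC content and exon length it was 3 and 3. A gene that was not called here was not shown to be alike in the 2 lines.

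A list of 51 other guidance genes, made of netrin and repulsive guidance receptors, cell adhesion molecules and the intracellular machinery that reads the cues, was read beside them. Of 48 tested, 4 were higher and 2 lower in Δexon6/Δexon6, 6 higher and 4 lower in insASAY/insASAY and 5 higher and 2 lower in Δexon6/+, with medians of 0.12, -0.06 and 0.05 on the log2 scale. That made 12.5%, 20.8% and 14.6% of the list called in either direction, against 19.7%, 31.1% and 27.9% of the guidance genes and 12.7%, 21.3% and 13.5% of all tested genes. The 5 with the smallest adjusted p were Rgma, a ligand of neogenin, higher in Δexon6/+ (1.06 ± 0.10), Rras, a small GTPase turned off by plexins, lower in insASAY/insASAY (-0.75 ± 0.08), the adhesion gene L1cam, lower in Δexon6/+ (-0.96 ± 0.11), its relative Nrcam, lower in insASAY/insASAY (-1.02 ± 0.12), and Neo1, which encodes neogenin, at -0.45 ± 0.05 in insASAY/insASAY, inside the fold limit. Dcc, the attractive netrin receptor, had at most 6 reads in any library and was not tested.

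Markers of cell state moved with the same lines. In Δexon6/+, 4 of the 6 tested neural progenitor markers were higher, with a median log2 fold change of 1.16 over the 6. Sox1 was 24.5 and 23.6 CPM there against 6.32 and 5.36 in wild-type, and Pax6, Zic1 and Sox3 were also higher, whereas Neurog2 and Hes5 had at most 3 and 2 reads in any library. Nes went the other way in Δexon6/+, at -0.43 ± 0.11 (edgeR adjusted p = 0.0097), inside the fold limit. It was called higher in Δexon6/Δexon6 (0.81 ± 0.11, adjusted p = 0.00020). Olig2 stood at 0.03 ± 0.16 in Δexon6/+ and was not called. The summed level of the list, which Nes dominates, was 114 and 116 CPM in wild-type, 124 and 122 in Δexon6/+, 130 and 139 in insASAY/insASAY and 158 and 205 in Δexon6/Δexon6, so the sum did not follow Sox1. Of 8 naive pluripotency markers, 4 were lower in each edited line, with a summed level of 337 and 319 CPM in wild-type and 185 to 247 CPM in the edited lines. They were Esrrb, Tfcp2l1, Tbx3 and Nanog in both homozygous lines, and Klf4, Nr0b1, Tfcp2l1 and Nanog in Δexon6/+. Inside the fold limit, Zfp42 was up in insASAY/insASAY (0.45 ± 0.07, edgeR adjusted p = 0.00012). Klf2 was likewise up in Δexon6/Δexon6 (0.30 ± 0.07, adjusted p = 0.0058). Of 4 general pluripotency markers, Pou5f1 was lower in Δexon6/Δexon6, and in Δexon6/+ Pou5f1 and Utf1 were lower and Sox2 higher. Of 6 markers of the formative and primed states, 1 was higher in each line, Pou3f1 in the homozygous lines and Lef1, an effector of the Wnt pathway, in Δexon6/+.

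Markers of the primitive streak differed in direction between the lines. Their summed level was 19.7 and 22.0 CPM in wild-type, 26.5 and 25.7 in Δexon6/Δexon6, 19.2 and 22.5 in insASAY/insASAY and 12.3 and 14.5 in Δexon6/+, most of it Eomes, a T-box factor of the streak. Of the 5 tested, Eomes was higher and Tbxt lower in Δexon6/Δexon6, Eomes and Wnt3 were lower in Δexon6/+, and Mixl1, at up to 29 reads, was higher and Wnt3 lower in insASAY/insASAY. Tbxt, the edited gene, had 26 and 22 reads in Δexon6/Δexon6 and 47 and 42 in wild-type. The deleted exon can give no reads in that line, and its part in the lower total was not tested. Of 5 tested neuron markers, Tubb3 was higher in both homozygous lines and lower in Δexon6/+, and the summed level of the list was 72.6 to 98.9 CPM.

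Fibroblast, endothelial and primitive endoderm markers also moved with the lines. The fibroblast sum was 25.4 and 27.99 CPM in wild-type, 17.2 and 20.3 in Δexon6/Δexon6, 17.0 and 15.5 in insASAY/insASAY and 27.7 and 27.0 in Δexon6/+. Of 6 fibroblast markers tested, 2 were lower in Δexon6/Δexon6 and 4 in insASAY/insASAY, with the collagen genes Col1a1 and Col3a1 among them in both, and 2 were higher and 1 lower in Δexon6/+. The gene lower in Δexon6/+ was Col3a1, which had at most 18 reads in any library. The endothelial sum was 49.2 and 52.0 CPM in wild-type, 27.5 and 17.9 in Δexon6/Δexon6, 40.4 and 35.9 in insASAY/insASAY and 28.2 and 27.6 in Δexon6/+. Most of it in every library was Pecam1, which stem cells also express, at 39.1 and 40.8 CPM in wild-type. Cdh5, Kdr and Emcn did not pass the filter. Of 4 endothelial markers tested, 2 were lower in Δexon6/Δexon6 and 3 in Δexon6/+, Pecam1 and Tie1 in both. The primitive endoderm sum was 18.5 and 17.3 CPM in wild-type, 14.6 and 12.1 in Δexon6/Δexon6, 16.6 and 15.3 in insASAY/insASAY and 20.9 and 21.1 in Δexon6/+, with Gata4 lower in Δexon6/Δexon6 and Dab2 and Foxa2 higher in Δexon6/+. The part of all these marker differences in the guidance gene values was not tested.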

How the data were processed

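Strand-specific poly(A) RNA sequencing of 8 libraries was used. The deposited files hold whole-number read counts per gene, which the authors made with STAR 2.7.2a on mm10; the annotation release is not given in the sources used here. The counts of the strand that holds most reads were used, and 48058 of 48440 identifiers matched GENCODE M21. The authors tested with DESeq2 1.40.2 and the thresholds kept here.

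Genes were filtered with filterByExpr (minimum count 10, minimum total 15), scaled by TMM and fitted with edgeR 4.0.16 (quasi-likelihood F test, R 4.3.3) over 8 libraries with a term per genotype, and p-values were adjusted by Benjamini-Hochberg over 17049 genes. A call needed both an adjusted p below 0.05 and a change of over 0.5 on the log2 scale. Standard errors were derived from the F statistic. RPKM used union exon lengths. The fit was tested on simulated data. With 2 libraries per genotype, an exact permutation test of a single gene could not pass the threshold, so none was used. The study's methods give the duplicates as biological replicates, and p-values measure the spread between them, shared over all genotypes.

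Alternatives were DESeq2 1.42.0, its size factors, no filter or at least 10 reads in every library, unstranded counts, fits of 2 genotypes, a replicate block, a test against the fold limit (TREAT), no fold limit, each library left out and, chosen after seeing the data, offsets for GC content and exon length.

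Members called against wild-type with a mean of at least 2 CPM were named with every library, those below 2 CPM with reads, uncalled ones of at least 20 CPM with their range, all on chromosome 3, and the 5 other guidance genes with the smallest adjusted p. The members, lists and tests were chosen with earlier results of these data known. Promoter windows came from RefSeq (GRCm38.p6).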

Additional observations from a re-analysis of the deposited data

How the results depend on the processing

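No gene called against wild-type changed direction under any alternative in which it passed the filter. Changes of sign in genes called in neither fit were not recorded. Against a log2 fold change of 0.5 (TREAT), the genes called numbered 2 in Δexon6/Δexon6, 10 in Δexon6/+ and 5 in insASAY/insASAY against wild-type, and 18, 21 and 2 for Δexon6/+ against Δexon6/Δexon6, insASAY/insASAY against Δexon6/+ and insASAY/insASAY against Δexon6/Δexon6, in place of 12, 17, 19, 33, 36 and 6. A stricter null hypothesis gives fewer calls by construction. Of all tested genes, TREAT called 1.57%, 4.55%, 7.13%, 9.08%, 12.9% and 0.786% in these comparisons, in the same order. Without a fold limit, 26, 27 and 37 of the 61 tested guidance genes were called against wild-type and 15 between the homozygous lines. The shares of all tested genes were 35.4%, 31.6%, 47.3% and 15.4%. A fit of the 4 libraries of the homozygous lines alone called 3, beside 3.47% of all genes. Leaving out 1 library at a time gave 10 to 15, 16 to 17, 15 to 21, 27 to 33, 27 to 38 and 3 to 8 calls for Δexon6/Δexon6, Δexon6/+ and insASAY/insASAY against wild-type and the 3 line comparisons in the same order; the lowest, 3, was without insASAY/insASAY replicate 1. Under the other alternatives each count stayed within 1.5 times its value. Of the 48 calls against wild-type, 32 were lost under no alternative, TREAT aside, in which the gene passed the filter. The replicate block gave 12, 16, 20, 33, 36 and 5 calls. The deviations of same-numbered libraries correlated between -0.01 and 0.05, so no pairing by number was seen. A batch that follows another order was not tested. Of the values for single genes, 2302 stayed on their side of the threshold, 62 passed it and 100 no longer did. Depth limited Epha5, Plxna4, Robo2 and the 6 untested genes, and the clones of Δexon6/Δexon6 differed more (median 0.216 on the log2 scale) than the other duplicates (0.0975 to 0.110).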

Other observations

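The 2 Δexon6/Δexon6 libraries, which are different clones, lay over 0.5 apart (log2) in 8 of the 61 tested guidance genes, or 13.1%, beside 13.1% of all tested genes. In the other genotypes the duplicates differed by that much in 3 wild-type, 2 insASAY/insASAY and 5 Δexon6/+ guidance genes. Among the better-covered genes, Epha8 was at 7.45 CPM in one clone and 4.40 CPM in the other, and Sema4c, the gene of a class 4 semaphorin, at 20.7 and 31.2 CPM. Sema6b was at 5.75 and 9.13 CPM. The log2 fold change of Sema4c in this line against wild-type was 0.15 ± 0.14 (edgeR adjusted p = 0.43). These genes were picked after their values were seen. The fit shares an estimate of the spread of each gene over all genotypes. The spread between these clones therefore enters every comparison, averaged with that of the other duplicates. Where the clones differ more than the other duplicates, the standard errors given for Δexon6/Δexon6 may be too small.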
